A study of Mus musculus with 2 samples.

Results

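The genes described here are 39 chaperone, heat-shock and cold-shock genes, found by symbol among the 33696 genes of both deposited matrices. They fall into 6 groups: 12 genes of HSF1 and the inducible cytosolic HSP70 and HSP90 system, 12 HSP70 and HSP90 partners and other cytosolic chaperones, 3 chaperones of the endoplasmic reticulum (ER), 3 mitochondrial chaperones, 7 subunits of the cytosolic chaperonin TRiC and 2 cold-shock RNA-binding proteins. They were measured by droplet single-cell RNA sequencing (10x Genomics, 3' kit) of CD45+ cells, that is leukocytes, taken from the livers of wild-type C57BL/6J mice by Ficoll gradient and flow sorting. The series holds 2 libraries. The untreated mice were age-matched controls, and the treated mice received the T cell-activating lectin concanavalin A (ConA) intravenously at 10 mg/kg in 1 injection per week for 3 weeks, a schedule the submitters describe as a tolerance model. Ages, the number of mice per library and the interval between the last injection and collection are not given in the sources used here. Each group is a single library, which leaves no replicates to test on, so every difference below describes these 2 libraries, and all intervals cover counting error only.

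Chaperones bind unfolded or partly folded proteins. The transcription factor HSF1 drives the cytosolic HSP70 and HSP90 genes when unfolded protein accumulates in the cytosol, as in heat or other proteotoxic stress, while the unfolded protein response of the ER drives Hspa5 (BiP) and Hsp90b1 (GRP94), which antibody-secreting cells hold at high levels. TRiC folds actin, tubulin and other newly made proteins, and Hspd1 (HSP60) with Hspe1 (HSP10) forms the folding chamber of the mitochondrial matrix. Cirbp and Rbm3 are RNA-binding proteins known for higher levels under mild cold and lower levels at raised temperature, and they also follow the daily body temperature rhythm.

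Members were looked up in the RefSeq table of promoter windows (GRCm38.p6, 250 bases before each transcription start), which held 31 of the 39. Hspa8, Hspa9, Hsp90aa1, Hsp90ab1, St13, Hsf1, Cct4 and Rbm3 had no entry. An HSF1-type heat shock element was searched as GAANNTTC or TTCNNGAA, the form of 2 inverted units, which the form of 3 units extends by a further GAA or TTC after 2 free bases. The form of 2 units was in 14.5% of the 27025 genes of the table and in 13 of the 31 members (41.9%), and the form of 3 units was in 0.514% of genes and in 3 members, namely Dnajb6, Hspd1 and Hspe1. Hspd1 and Hspe1 are transcribed in opposite directions from overlapping windows and share the element. Of the 13 members with the form of 2 units, Hsph1, Hspa1a, Hspa1b, Dnaja1, Fkbp4 and Hspd1 were past 1.5-fold higher in at least 1 cell class. Cct2, Cct5, Cdc37, Dnajb4, Dnajb6 and Hspe1 were past it higher in none, and Hspb1 was too low to be measured in any. Hspa1a and Hspa1b were called through their ConA level alone, as described below. Among members in the table without the element, Hspa5, Hsp90b1, Dnajb11, Stip1, Chordc1 and Cacybp were past 1.5-fold higher in at least 1 class too. The share of all genes with the element that were past it was not computed, and a link between element and level was not tested. The following 100-base stretches, written 5' to 3' in the direction of the gene with the element in capitals, show it in 4 members that were higher in the ConA library in at least 3 cell classes, and in Hspe1, which was past 1.5-fold in none.
Hsph1, chr5:149636337-149636436, minus strand: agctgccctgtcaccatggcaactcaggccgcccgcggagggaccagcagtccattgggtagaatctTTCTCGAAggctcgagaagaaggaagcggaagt
Hspa1b, chr17:34959289-34959388, minus strand: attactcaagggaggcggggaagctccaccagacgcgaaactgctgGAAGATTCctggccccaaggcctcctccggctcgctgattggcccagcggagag
Dnaja1, chr4:40722298-40722397, plus strand: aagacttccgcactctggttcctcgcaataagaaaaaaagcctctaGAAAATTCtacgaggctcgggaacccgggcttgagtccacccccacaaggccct
Fkbp4, chr6:128438754-128438853, minus strand: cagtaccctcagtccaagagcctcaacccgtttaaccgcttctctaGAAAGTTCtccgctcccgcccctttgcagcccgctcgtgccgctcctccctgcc
Hspe1, chr1:55088020-55088119, plus strand: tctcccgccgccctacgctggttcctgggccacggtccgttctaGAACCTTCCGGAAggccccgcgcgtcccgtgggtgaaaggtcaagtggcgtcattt
Stip1 and Chordc1, which were higher across the classes as well, held none of the elements searched in any of their windows, and their last 100 bases before the start are shown for comparison.
Stip1, chr19:7040027-7040126, minus strand: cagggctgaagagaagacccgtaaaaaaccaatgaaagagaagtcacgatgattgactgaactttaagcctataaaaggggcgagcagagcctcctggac
Chordc1, chr9:18292167-18292266, plus strand: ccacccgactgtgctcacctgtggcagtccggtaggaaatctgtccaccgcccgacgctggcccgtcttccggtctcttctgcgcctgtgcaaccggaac
An ER stress element, CCAAT and CCACG with 9 free bases between them on either strand, was in 0.130% of genes and in 2 members, Hsp90b1 and Hspa5. The mild cold response element TCCCCGCC, or GGCGGGGA on the other strand, was in 5.37% of genes and in 6 members, which included Cirbp but also Bag3, Dnaja1, Dnajb4, Hspa1a and Hspa1b. A match describes the letters in the window only and is not evidence of binding.
Hsp90b1, chr10:86705493-86705592, minus strand: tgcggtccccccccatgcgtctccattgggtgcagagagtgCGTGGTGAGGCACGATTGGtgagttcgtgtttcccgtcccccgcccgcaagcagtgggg
Hspa5, chr2:34771984-34772083, plus strand: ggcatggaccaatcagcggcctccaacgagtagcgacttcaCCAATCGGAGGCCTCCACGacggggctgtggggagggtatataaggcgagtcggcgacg
Cirbp, chr10:80167589-80167688, plus strand: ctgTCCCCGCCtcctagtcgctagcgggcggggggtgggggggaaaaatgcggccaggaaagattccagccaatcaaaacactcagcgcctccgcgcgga

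Cells were assigned to 6 classes by lineage marker, with at least 1 UMI (a molecule counted by its unique identifier) of that marker and none of the other 5. Cd79a, a subunit of the B cell receptor, gated 3231 untreated and 3136 ConA cells, and Cd3e, a subunit of the T cell receptor complex, gated 1582 and 4641. Ncr1 (NKp46, of natural killer cells and type 1 innate lymphoid cells) gated 626 and 872, and Siglech (plasmacytoid dendritic cells) gated 391 and 502. Csf3r, the G-CSF receptor of neutrophils, gated 2419 and 470, and Csf1r, the CSF1 receptor of monocytes and macrophages, gated 876 and 337. Among leukocyte marker lists that exclude the gating genes, the list of its own lineage had the highest summed level in every gate of both libraries. The gates held 51.8% of the 17632 untreated and 56.0% of the 17767 ConA cells that passed quality filters, with median depths of 3128 and 3471 UMIs per cell over all kept cells, and the libraries shared 82 barcodes. Red cell RNA, summed over 6 genes, was higher in the ConA library in each gate, at 4741 to 11683 CPM (counts per 1000000 UMIs of the class) in the untreated library and 27872 to 62742 CPM in the ConA library. The part of this in the results was not tested beyond an alternative that leaves haemoglobin and immunoglobulin genes out of the total.

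Several genes of the cytosolic HSP70 and HSP90 machinery were higher in the ConA library in lymphoid and myeloid classes alike, and the pair of cold-shock genes was lower. Hsph1 and Chordc1 were past 1.5-fold higher in all 6 classes and Stip1 in 5, under the main settings. The Hsph1 call in the Csf3r gate was lost under other settings given below. So was the Chordc1 call in the Cd79a, Ncr1 and Csf3r gates. Cirbp and Rbm3 were past 1.5-fold lower in 5 classes and below 0 on the log2 scale in all 6. The Cirbp call in the Csf1r gate was lost under another setting given below. ER chaperones were mainly higher in the Cd79a gate, and the TRiC medians lay near that of all genes except in the Ncr1 gate. For these counts, a gene was taken as measured in a class with at least 10 CPM in 1 library and 20 UMIs over both, and as past the fold at a log2 ratio of 0.585 after adding 5 CPM to both levels. Log2 ratios below are on that scale unless they are said to be without the constant, and pairs of levels give the untreated library first.

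In the Cd79a gate 9 of 34 measured members (26.5%) were past 1.5-fold higher in the ConA library, where 3.98% of 8621 measured genes were, and 2 (5.88%) were past it lower, where 6.07% of genes were. In the Cd3e gate the counts were 5 of 35 higher (14.3%), against 3.82% of 8763 genes, and 2 lower (5.71%), against 4.33%. The Ncr1 gate gave 4 of 35 higher (11.4%), against 6.09% of 8854 genes, and 3 lower (8.57%), against 7.76%. The share of members past the fold higher was thus above that of all genes in these lymphoid gates, and the share lower was near it, with Cirbp and Rbm3 making up all of it except Cct2 in the Ncr1 gate. The median log2 ratio of the measured members was 0.13 (Cd79a), 0.05 (Cd3e) and -0.13 (Ncr1), against -0.03, 0.04 and 0.01 over all genes. In the Ncr1 gate 20 of the 35 were below 0, so the members as a set were not higher there. In the Siglech gate 8 of 35 members were higher (22.9%), against 7.64% of 8896 genes, and 2 lower (5.71%), against 6.44%. The myeloid gates had wider distributions. In the Csf3r gate 8 of 36 members were higher (22.2%), against 15.2% of 8053 genes, with none lower, against 10.3%. Of these 8, Hsph1, Hspa1a and Hspa1b passed the filter through their ConA level alone, so their calls follow from the filter in part. The same holds for Hspa1a and Hspa1b in the Csf1r gate and for Hsph1 and Hspa1b in the Siglech gate. In the Csf1r gate 12 of 38 were higher (31.6%), against 18.1% of 8948 genes, and 2 lower (5.26%), against 8.92%. The median log2 ratio of all genes was itself 0.15 in the Csf3r gate and 0.15 in the Csf1r gate, and between -0.03 and 0.05 in the other 4.

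**Figure D1:**
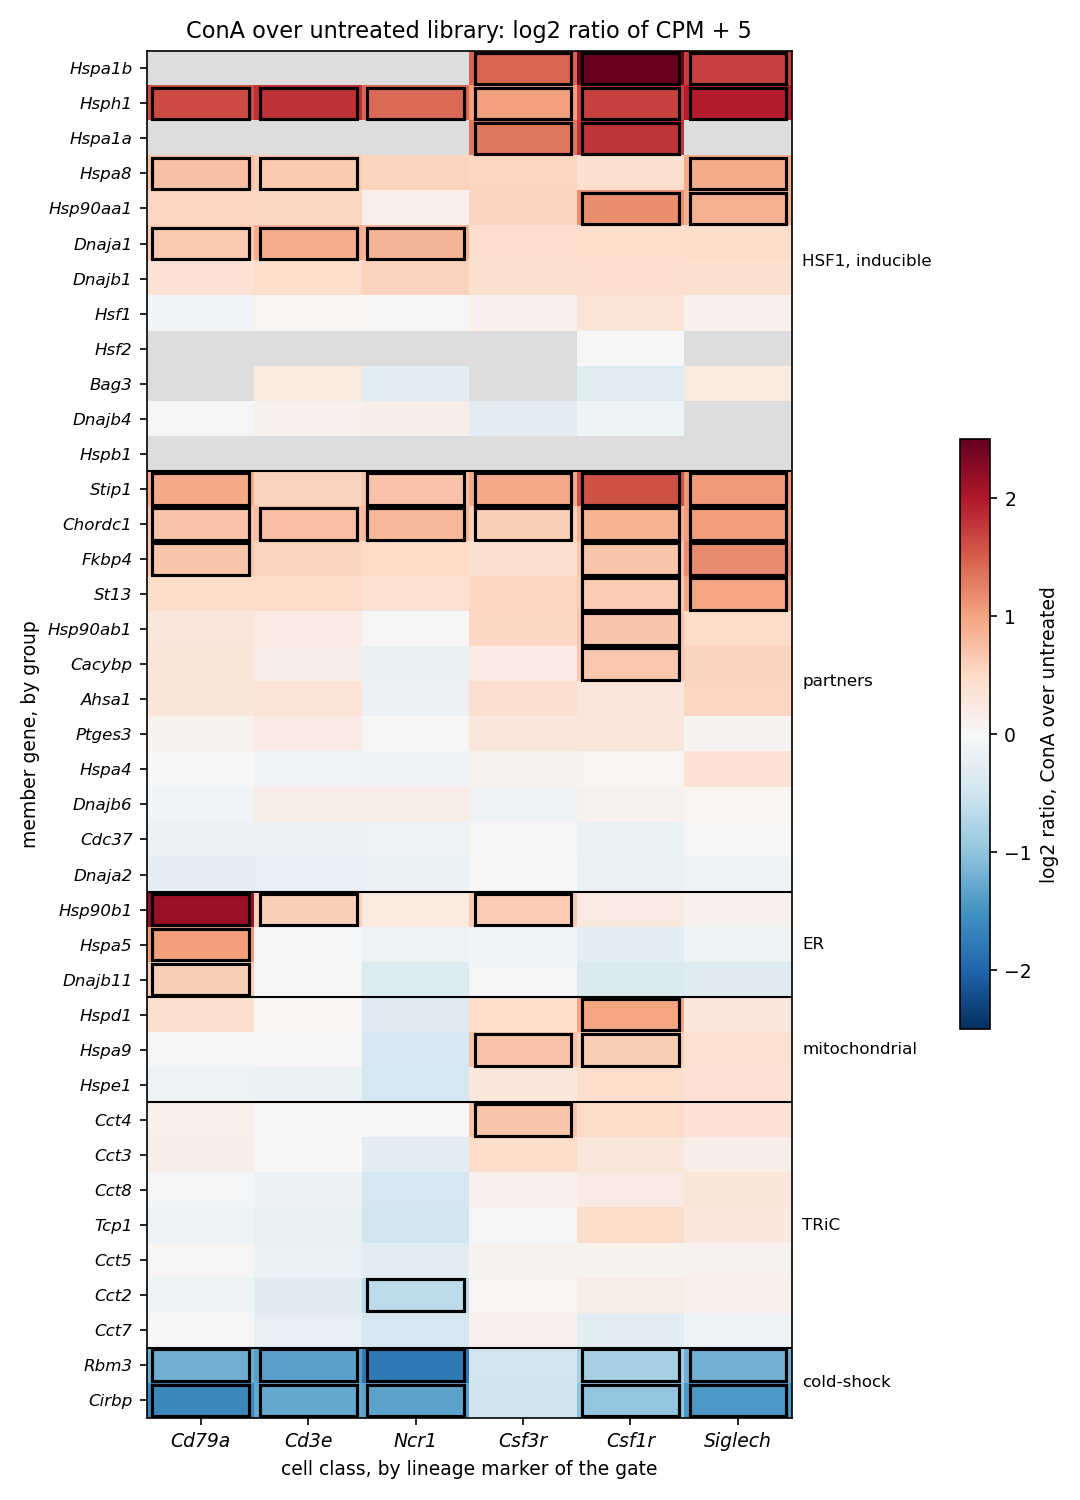
Log2 ratio of CPM + 5, ConA over untreated, for the 39 members (vertical axis, by group and then by mean ratio) in the 6 gates (horizontal axis). Black frames mark ratios past 1.5-fold under the main settings and grey marks levels under the filter. The framed rows of Hsph1 and Chordc1 run across all 6 gates, the latter with a Csf3r value just inside the fold, and those of Cirbp and Rbm3 across 5.

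Over all gates, 33 members were measured in each of the 6, and Hspb1, a small heat shock protein, was measured in none (24 untreated and 52 ConA UMIs over the 6 gates). Of the 39 members, 18 were past the fold higher in at least 1 gate, 3 were past it lower in at least 1, and 18, with Hspb1 among them, were past it in none. The shares of all genes past the fold in at least 1 gate, or in all 6, were not computed. Such counts over gates therefore have no comparison here. The 12 genes of the inducible cytosolic group gave 51 measured gene and gate pairs, of which 19 (37.3%) were past the fold higher and none lower, where 9.09% of the 52135 pairs of all genes were higher and 7.26% lower. Of these 51, 10 passed the filter by their ConA level alone, 7 of them among the 19. The 12 partners gave 72 pairs, 18 higher (25%) and none lower. The ER group gave 18 pairs with 5 higher (27.8%), 3 of them in the Cd79a gate, and TRiC 42 with 1 higher and 1 lower (2.38% each). The mitochondrial group gave 18 with 3 higher (16.7%). All 3 lay in the Csf3r and Csf1r gates, where 15.2% and 18.1% of all genes were higher. The 2 cold-shock genes gave 12 pairs with 10 lower (83.3%).

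**Figure D2:**
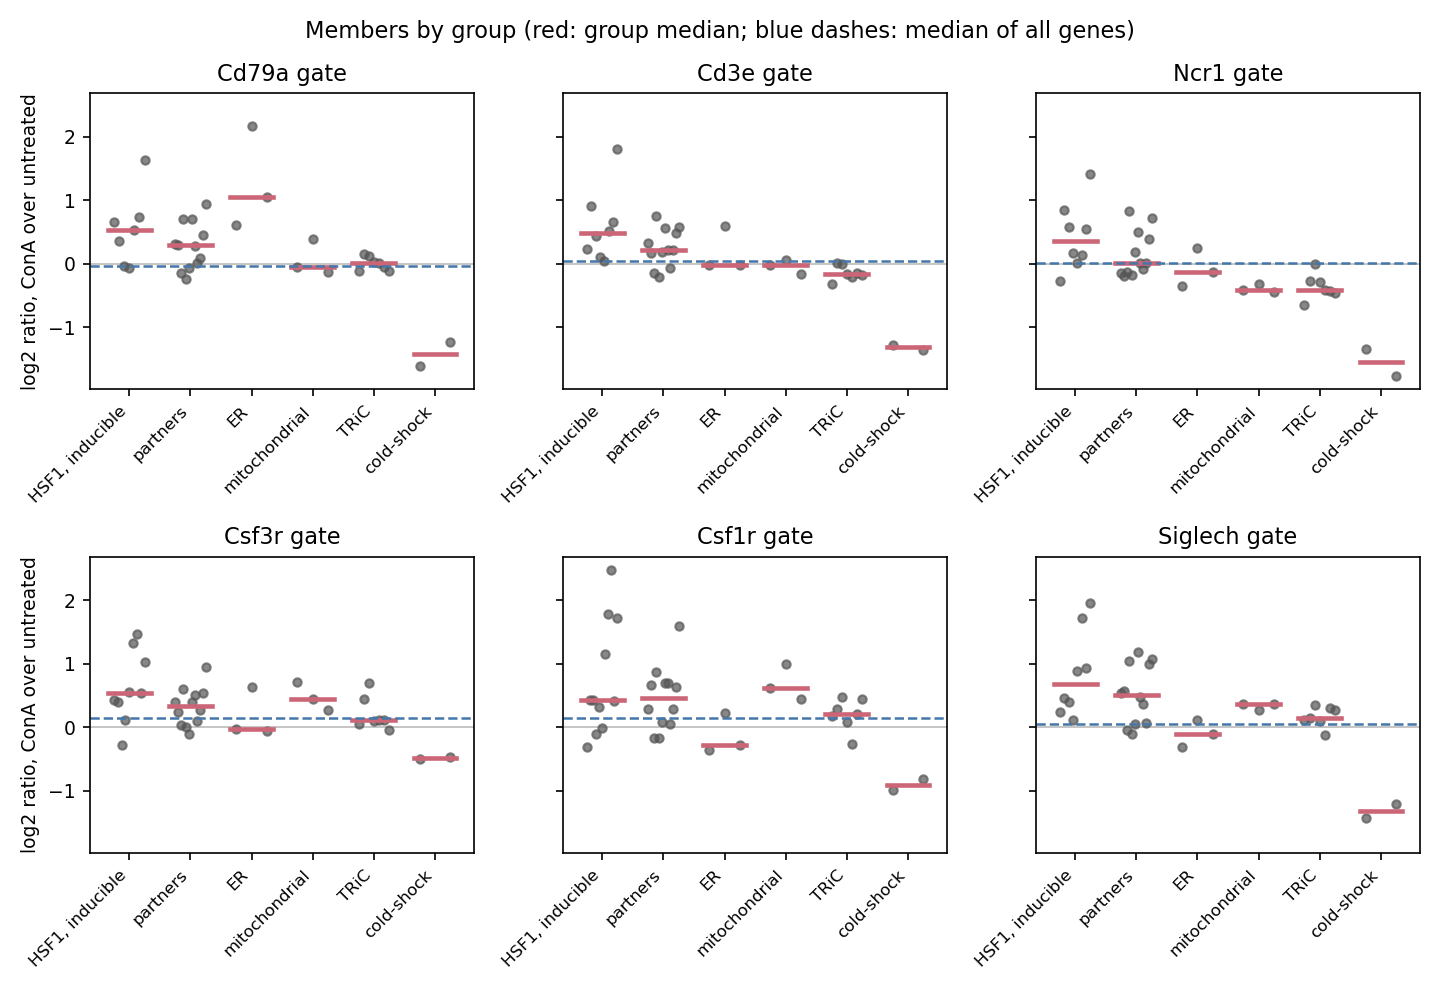
Log2 ratio of CPM + 5, ConA over untreated (vertical axis), of each measured member (grey points) by group (horizontal axis) in each gate, with the group's median in red and the median of all measured genes as blue dashes. The inducible cytosolic group has its median above the dashes in every gate, and both cold-shock genes lie below them in every gate.

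Hsph1 encodes HSP110, a nucleotide exchange factor that recharges HSP70 and helps it to dissolve aggregates. Its level was 14.1 CPM (122 UMIs) in the untreated and 54.5 CPM (594 UMIs) in the ConA library in the Cd79a gate, 22.5 (139) and 91.7 CPM (1647) in the Cd3e gate, and 22.2 (53) and 67.7 CPM (210) in the Ncr1 gate. In the Siglech gate it was 9.77 (17) and 52.3 CPM (128), in the Csf1r gate 10.5 (46) and 45.9 CPM (83), and in the Csf3r gate 5.05 (34) and 15.5 CPM (24). The ConA level was the higher in every gate, and the 95% Poisson intervals of the levels did not overlap in any. Without the constant, the log2 ratio ran from 1.61 (95% counting interval 1.17 to 2.07) in the Ncr1 gate to 2.42 (1.68 to 3.24) in the Siglech gate, and these intervals overlap. In the Csf3r and Siglech gates the untreated level was under 10 CPM, so that Hsph1 passed the filter through its ConA level alone, as it would only if it was higher. The Csf3r gate, with the lowest level in both libraries, rests on 34 and 24 UMIs, and after subtraction of estimated free RNA Hsph1 fell under the filter there (log2 ratio 0.39). Its call in that gate was also lost with a gate of 2 or more UMIs (0.56, under the filter) and with a constant of 20 CPM (0.50).

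The share of cells in which Hsph1 was seen was higher in the ConA library in every gate, though not always beyond counting error. In the Cd3e gate, after each cell was thinned to 1000 UMIs, 1.82% (exact 95% interval 1.21 to 2.62) of untreated and 8.87% (8.06 to 9.73) of ConA cells had at least 1 Hsph1 UMI, where 7.77% and 26.7% did before thinning. In the Cd79a gate the thinned shares were 1.73% (1.30 to 2.26) and 5.68% (4.89 to 6.57), and before thinning 3.65% and 15.7%. No class is known to lack Hsph1, so a background share from free RNA could not be set. Thinning left out 43 untreated and 96 ConA cells of the Cd3e gate and 170 and 110 of the Cd79a gate.

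Hspa1a and Hspa1b encode the stress-inducible HSP70 and are near-identical copies, so that reads cannot be assigned between them with certainty and their sum is the safer value. Summed, they had 15 untreated and 170 ConA UMIs in the Cd79a gate (1.74 and 15.6 CPM), 5 and 208 in the Cd3e gate (0.810 and 11.6 CPM) and 1 and 42 in the Ncr1 gate (0.419 and 13.5 CPM). The Csf3r gate had 52 and 57 UMIs (7.72 and 36.7 CPM) and the Csf1r gate 62 and 172 (14.2 and 95.1 CPM). Untreated levels were thus under 2 CPM in the lymphoid gates and higher in the myeloid gates. In the Siglech gate, with 0 and 39 UMIs, the ConA level was at least 9.23-fold the limit of 3 counts that 0 allows, and the conditional interval of the ratio, which also covers the counting error of the ConA UMIs, began at 7.16. The ratio of the summed levels was 8.98 (5.29 to 16.4) in the Cd79a gate, 14.3 (6.03 to 44.5) in the Cd3e gate, 32.3 (5.49 to 1306) in the Ncr1 gate on a single untreated UMI, 4.76 (3.21 to 7.07) in the Csf3r gate and 6.71 (4.99 to 9.12) in the Csf1r gate. Taken apart, Hspa1b passed the filter in the Csf3r, Csf1r and Siglech gates and Hspa1a in the first 2 of these, each past the fold. Neither reached 10 CPM in the untreated library of any gate, so each passed through its ConA level alone, and these calls follow from the filter in part.

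Hspa8 encodes HSC70, the constitutive cytosolic HSP70. It stood at 302 and 504 CPM in the Cd79a gate, 519 and 820 CPM in the Cd3e gate and 397 and 763 CPM in the Siglech gate, each past the fold, with log2 ratios without the constant of 0.74 (0.67 to 0.81), 0.66 (0.61 to 0.72) and 0.94 (0.81 to 1.07). In the Ncr1 gate it stood at 549 and 806 CPM, in the Csf3r gate at 280 and 408 CPM and in the Csf1r gate at 807 and 1072 CPM, under the fold but with the ConA level the higher. Dnaja1, a J-domain protein that delivers clients to HSP70, was past the fold in the lymphocyte gates: 109 and 175 CPM in the Cd79a gate, 164 and 311 CPM in the Cd3e gate and 162 and 297 CPM in the Ncr1 gate. In the Csf3r, Csf1r and Siglech gates Dnaja1 was at 162 and 218, 195 and 265, and 158 and 220 CPM. Hspa8 and Dnaja1 were therefore above 0 on the log2 scale in all 6 gates and reached the fold in different sets of gates, a difference that was not tested. Their Cd79a calls depended on the setting. After free RNA was subtracted, Hspa8 was at 0.575 and Dnaja1 at 0.448 there, both under the fold. The estimated free share of that gate was 9.80% and 28.1%. With gating by the marker with most UMIs, Hspa8 was at 0.570.

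Hsp90aa1, the inducible cytosolic HSP90, was past the fold in the Csf1r gate (139 and 317 CPM) and the Siglech gate (174 and 325 CPM), and its log2 ratios in the other gates ran from 0.14 (Ncr1) to 0.56 (Csf3r). Dnajb1, the J-domain partner of inducible HSP70, was above 0 in all 6 gates with log2 ratios of 0.35 to 0.58 and reached the fold in none. Bag3, an HSP70 cochaperone of selective autophagy, was measured in 4 gates at -0.31 to 0.25, and Dnajb4 in 5 at -0.27 to 0.17. The transcription factor Hsf1 itself had log2 ratios of -0.07 to 0.32 and levels of 9.21 to 39.4 CPM in the untreated and 10.3 to 40.8 CPM in the ConA library, so its transcript was not past the fold in any gate. Hsf2 was measured in the Csf1r gate only, at 12.3 and 12.2 CPM.

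**Figure D3:**
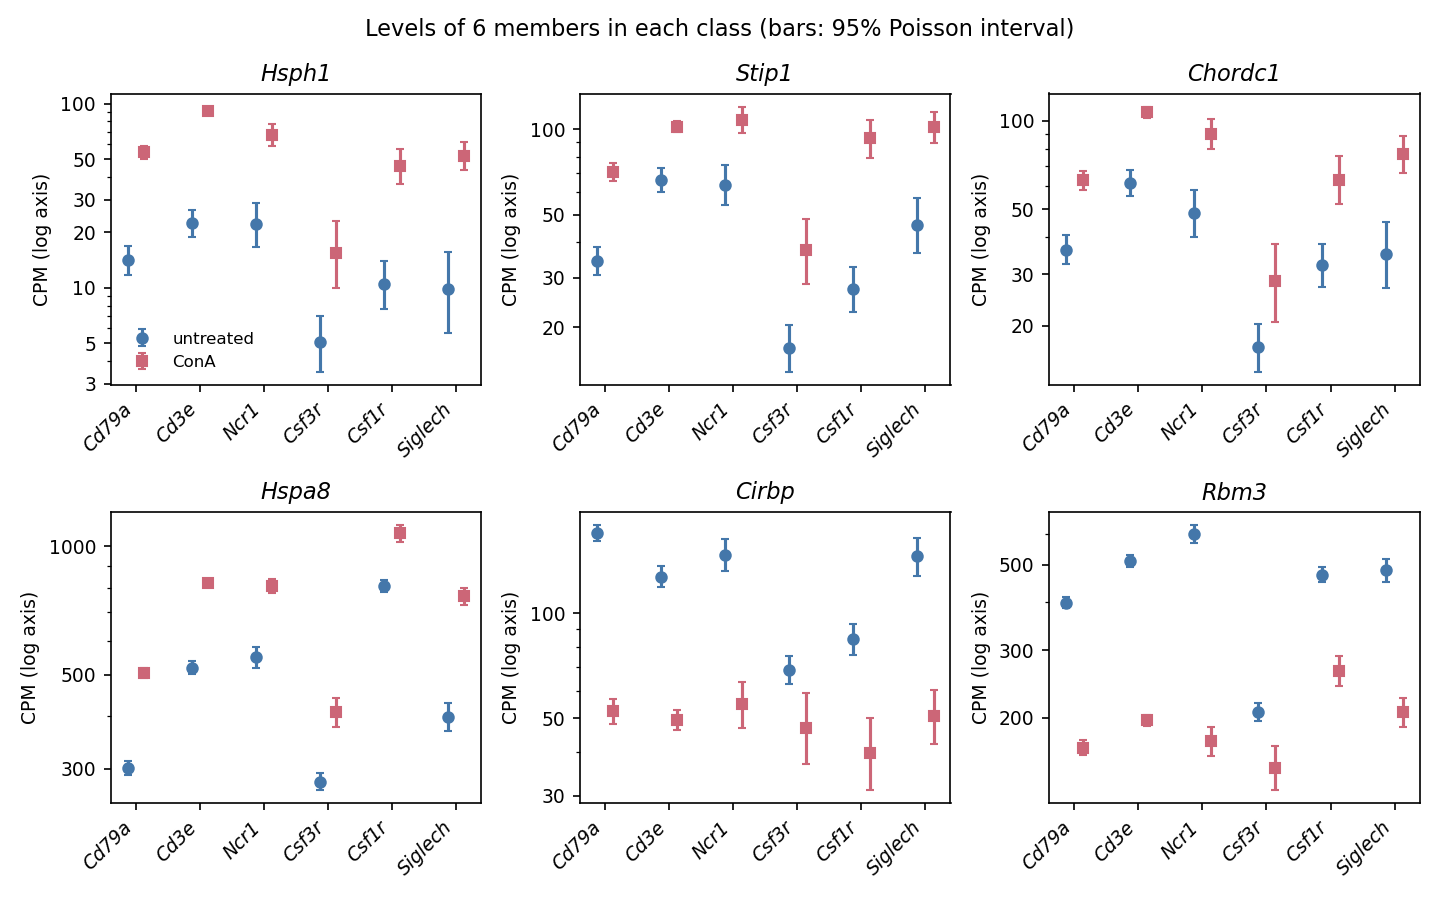
Level in CPM (vertical log axes, which differ between panels) of Hsph1, Stip1, Chordc1, Hspa8, Cirbp and Rbm3 in each gate (horizontal axes), untreated in blue circles and ConA in red squares, with 95% Poisson intervals. The ConA level is above the untreated level in every gate for the first 4 genes and below it in every gate for Cirbp and Rbm3.

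Among the partners, Stip1 (HOP), which links HSP70 to HSP90, had 34.4 and 70.9 CPM in the Cd79a gate, 66.4 and 102 CPM in the Cd3e gate and 63.7 and 108 CPM in the Ncr1 gate. In the Csf3r, Csf1r and Siglech gates it had 16.9 and 37.4, 27.4 and 92.9, and 46.0 and 102 CPM. The Csf1r ratio was the largest, at 1.76 (1.41 to 2.11) on the log2 scale without the constant. The Cd3e value was the only one not past the fold, and it lay just under it, at 0.58. Chordc1, an HSP90-binding protein, had 36.4 and 62.6 CPM in the Cd79a gate, 61.4 and 107 CPM in the Cd3e gate, 48.6 and 90.2 CPM in the Ncr1 gate and 35.1 and 77.2 CPM in the Siglech gate. In the Csf3r and Csf1r gates it had 16.9 and 28.4, and 32.2 and 63.0 CPM. Its log2 ratios lay between 0.61 and 1.04. In the Csf3r gate, just inside the fold, the ratio was 0.33 after free RNA was subtracted, 0.46 when centred on the median gene and 0.52 without immature neutrophils. In the Cd79a gate it was 0.53 after free RNA was subtracted, and in the Ncr1 gate 0.39 after thinning to 1000 UMIs, all under the fold.

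Fkbp4 (FKBP52), an immunophilin of HSP90 and steroid receptor complexes, was past the fold in the Cd79a (35.8 and 61.2 CPM), Csf1r (35.4 and 60.2 CPM) and Siglech gates (29.3 and 73.1 CPM). In the Cd3e, Ncr1 and Csf3r gates it had 50.2 and 76.7, 45.2 and 66.4, and 15.9 and 22.6 CPM. St13 (HIP), an HSP70 cochaperone, was past the fold in the Csf1r and Siglech gates and above 0 in all 6, with log2 ratios of 0.39 to 0.99. Hsp90ab1, the constitutive cytosolic HSP90, was past it in the Csf1r gate only (686 and 1110 CPM) and ran from 0.01 in the Ncr1 gate upwards. Cacybp was past it in the Csf1r gate only as well. The Csf1r calls of Hsp90ab1, Cacybp, Fkbp4 and St13 depended on the setting. Centred on the median gene they were at 0.54, 0.52, 0.54 and 0.48, and Fkbp4 was at 0.11 after thinning. Ahsa1, an activator of the HSP90 ATPase, Ptges3 (p23), Hspa4, Dnajb6, Cdc37, which brings kinases to HSP90, and Dnaja2 were past the fold in no gate. Their log2 ratios ran from -0.25 (Dnaja2, Cd79a gate) to 0.54 (Ahsa1, Siglech gate). Cochaperones of HSP90 thus ranged from Chordc1, Stip1 and Fkbp4, past the fold in 6, 5 and 3 gates, to Ptges3 and Cdc37, with medians over gates of 0.15 and -0.14.

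The ER chaperones were past the fold together in the Cd79a gate. Hsp90b1 stood at 272 and 1240 CPM, Hspa5 at 279 and 583 CPM and Dnajb11, a J-domain cofactor of Hspa5, at 57.4 and 89.98 CPM. Plasma cells moved with this result. Cells with a UMI of Sdc1 or at least 3 of Jchain, here called plasma-gated, numbered 21 (0.650%) of the untreated and 243 (7.75%) of the ConA cells of the gate, and the 5 plasma cell markers summed to 540 and 4595 CPM. Without those cells Hsp90b1 stood at 249 and 377 CPM, still past the fold at a log2 ratio of 0.59, while Hspa5 stood at 276 and 308 CPM (0.16) and Dnajb11 at 56.2 and 50.6 CPM (-0.14). Among the plasma-gated cells themselves, Hsp90b1 was at 2305 (227 UMIs) and 5028 CPM, Hspa5 at 569 (56 UMIs) and 1791 CPM and Dnajb11 at 162 (16 UMIs) and 263 CPM, the untreated values resting on 21 cells. The plasma gate was also met by 0% and 5.16% of the Ncr1 gate and by 1.53% and 4.38% of the Siglech gate, so it is not specific to plasma cells. The part of free RNA and doublets in it was not tested. Cytosolic members differed as much or more without the plasma-gated cells: Hsph1 was at 14.2 and 59.0 CPM and Hspa8 at 303 and 539 CPM, and 10 members were higher and 2 lower, where 3.07% and 4.99% of genes were.

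**Figure D4:**
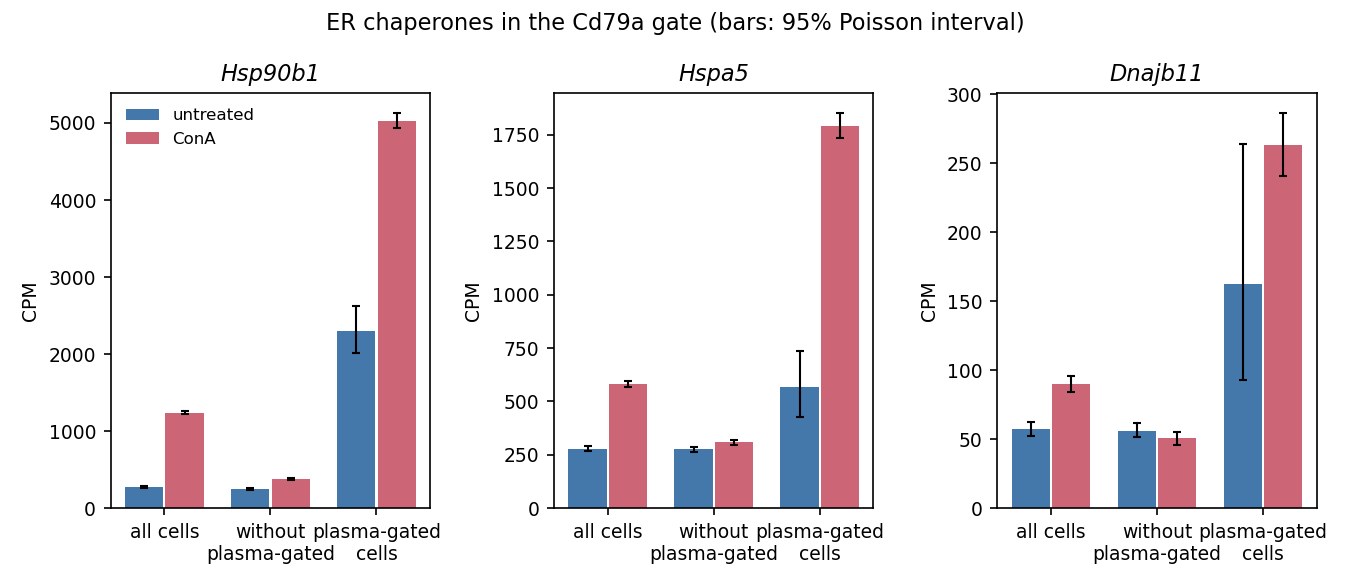
Level in CPM (vertical axes from 0, which differ between panels) of Hsp90b1, Hspa5 and Dnajb11 in all cells of the Cd79a gate, in the gate without plasma-gated cells and in the plasma-gated cells alone (horizontal axes), untreated in blue and ConA in red, with 95% Poisson intervals. In the gate without plasma-gated cells the levels of Hspa5 (276 and 308 CPM) and Dnajb11 (56.2 and 50.6 CPM) are close between the libraries, and that of Hsp90b1 is 249 and 377 CPM.

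Outside the Cd79a gate, Hsp90b1 was past the fold in the Cd3e gate (308 and 468 CPM) and the Csf3r gate (169 and 266 CPM). In the Ncr1, Csf1r and Siglech gates it was at 448 and 532, 497 and 579, and 836 and 907 CPM. The value in the Cd3e gate lay just inside the fold (log2 ratio 0.60), and cells that met the plasma gate were 0.190% and 2.97% of that gate. After subtraction of estimated free RNA the log2 ratio was 0.47, and without cycling cells 0.56. The Csf3r value of Hsp90b1 was 0.40 after free RNA was subtracted, 0.40 with gating by the marker with most UMIs and 0.49 when centred, all under the fold. Hspa5 and Dnajb11 were below 0 in all 5 other gates, with log2 ratios of -0.28 to -0.02 and -0.36 to -0.02. Dnajb11 had 65.1 and 64.0 CPM in the Cd3e gate, 95.5 and 73.8 CPM in the Ncr1 gate, 43.7 and 42.5 CPM in the Csf3r gate, 122 and 94.0 CPM in the Csf1r gate and 101 and 80.0 CPM in the Siglech gate.

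Of 23 further genes of ER folding and the unfolded protein response, 13 were past the fold higher in the Cd79a gate, with a median log2 ratio of 0.75 against -0.03 over all genes. Creld2, an ER stress-induced secreted protein, had 22.0 and 129 CPM there, and Edem1, of ER-associated degradation, 63.3 and 168 CPM. Without the plasma-gated cells described above none of the 23 was past it in the Cd79a gate, the median was 0.15 against 0.03 over all genes, Creld2 was at 20.2 and 29.4 CPM and Edem1 at 59.8 and 73.2 CPM. In the other 5 gates none of the 23 was past it higher and 2 gene and gate pairs were past it lower. Pdia6, a disulfide isomerase, was higher in the Cd79a gate (92.03 and 182 CPM) and lower in the Csf1r gate (244 and 160 CPM), and Pdia3 was at 0.52 in the Cd79a gate and between -0.46 and -0.01 in the others.

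Mitochondrial chaperones differed between gates. Hspd1 had 58.5 and 122 CPM in the Csf1r gate, past the fold, and 52.7 and 70.97 CPM in the Cd79a gate, 99.6 and 103 CPM in the Cd3e gate, 129 and 102 CPM in the Ncr1 gate, 28.2 and 39.96 CPM in the Csf3r gate and 65.0 and 79.6 CPM in the Siglech gate. Hspa9 (mortalin), the mitochondrial HSP70, was past the fold in the Csf3r gate (29.1 and 50.9 CPM) and the Csf1r gate (50.5 and 80.1 CPM). It had 82.9 and 79.8 CPM in the Cd79a gate, 104 and 102 CPM in the Cd3e gate, 110 and 80.9 CPM in the Ncr1 gate and 67.3 and 88.6 CPM in the Siglech gate. Neither call of Hspa9 held in all settings. Centred on the median gene, the Csf3r and Csf1r log2 ratios were 0.56 and 0.46. With gating by the marker with most UMIs they were 0.51 and 0.49, and the Csf1r value was 0.44 with predicted doublets removed. All 3 mitochondrial members were thus above 0 in the Csf3r, Csf1r and Siglech gates and below 0 in the Ncr1 gate, where the median was -0.42. Hspe1 was past the fold in none. Of 10 other genes of mitochondrial protein quality, 1 gene and gate pair of 53 was past the fold higher and none lower; Grpel1, the exchange factor of Hspa9, ran from -0.49 to -0.07 and the AAA protease subunit Afg3l2 from -0.17 to 0.53.

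TRiC subunits differed little between the libraries. Their median log2 ratio was 0.01 in the Cd79a gate, -0.17 in the Cd3e gate, -0.42 in the Ncr1 gate, 0.11 in the Csf3r gate, 0.20 in the Csf1r gate and 0.15 in the Siglech gate, against all-gene medians of -0.03, 0.04, 0.01, 0.15, 0.15 and 0.05. In the Ncr1 gate all 7 were below 0 and Cct2 was past the fold lower (158 and 98.6 CPM). Cct4 was past it higher in the Csf3r gate (30.9 and 52.8 CPM, 208 and 82 UMIs), and had 70.6 and 77.1 CPM in the Cd79a gate, 89.9 and 89.5 CPM in the Cd3e gate, 88.8 and 87.96 CPM in the Ncr1 gate, 68.8 and 97.8 CPM in the Csf1r gate and 70.7 and 91.9 CPM in the Siglech gate. Cct7, with the lowest mean ratio of the 7, had 67.7 and 68.1 CPM in the Cd79a gate, 101 and 86.9 CPM in the Cd3e gate, 113 and 83.8 CPM in the Ncr1 gate, 34.3 and 37.4 CPM in the Csf3r gate, 82.5 and 68.0 CPM in the Csf1r gate and 83.9 and 76.4 CPM in the Siglech gate. In the Ncr1 gate, cycling genes were lower too, with 4 of 5 measured past the fold. Cells with at least 2 UMIs of 7 cycling genes were 2.56% of the untreated and 2.29% of the ConA cells of that gate. A link to the TRiC levels was not tested.

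The cold-shock genes were the 2 members below 0 in every gate. Cirbp had 170 and 52.4 CPM in the Cd79a gate, 127 and 49.5 CPM in the Cd3e gate and 147 and 54.8 CPM in the Ncr1 gate. In the Siglech, Csf1r and Csf3r gates it had 145 and 50.6, 84.1 and 39.8, and 68.8 and 47.0 CPM. Untreated levels spread from 68.8 to 170 CPM over the gates, whereas ConA levels lay between 39.8 and 54.8 CPM. The log2 ratio without the constant was -1.69 (-1.84 to -1.55) in the Cd79a gate and -0.55 (-0.92 to -0.19) in the Csf3r gate, the only gate where Cirbp was not past the fold under the main settings. In the Csf1r gate it was at -0.58 after thinning to 1000 UMIs, just under the fold. The thinned shares of cells with a Cirbp UMI overlapped there, at 7.71% (5.98 to 9.76) and 5.31% (3.12 to 8.37). They overlapped in the Csf3r gate too, at 6.50% (5.50 to 7.62) and 3.56% (2.01 to 5.81), but in no other.

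Rbm3 had 398 and 167 CPM in the Cd79a gate, 512 and 197 CPM in the Cd3e gate and 602 and 174 CPM in the Ncr1 gate. In the Siglech, Csf1r and Csf3r gates it had 484 and 207, 472 and 265, and 207 and 148 CPM. The untreated level was again the higher in each gate, with log2 ratios without the constant that were farthest from 0 in the Ncr1 gate (-1.79, interval -1.94 to -1.65) and nearest to it in the Csf3r gate (-0.48, interval -0.69 to -0.28). After thinning to 1000 UMIs, 37.2% of untreated and 17.3% of ConA cells of the Cd3e gate had an Rbm3 UMI (75.0% and 47.1% before thinning), and 44.8% and 14.0% of the Ncr1 gate (75.6% and 40.8%). In the Csf3r gate the thinned shares were 16.1% (14.6 to 17.7) and 14.3% (11.1 to 18.0), with overlapping intervals, and before thinning the ConA share was the higher (32.3% and 34.0%). None of 9 other temperature- and cold-responsive RNA genes was past the fold in any gate: Rbm5 ran from 0.06 to 0.58, Clk1, a kinase whose activity is temperature-sensitive, from -0.02 to 0.48, and Srsf5 and Ybx1, a cold-shock domain protein, from -0.55 to 0.01 and from -0.51 to 0.07.

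Of 39 other cytosolic chaperone genes, 205 gene and gate pairs were measured, 16 past the fold higher (7.80%) and none lower, so that the share higher was near the 9.09% of all genes. Hspa4l, a relative of Hsph1 in the HSP110 family, was past it in 4 gates (for example 12.5 and 26.3 CPM in the Cd3e gate and 14.4 and 43.3 CPM in the Siglech gate), and Dnajb2 in 4 as well. Bag1 and Stub1 (CHIP), which steer HSP70 clients to degradation, had the lowest means over gates and were past it in none (-0.39 to 0.06 and -0.49 to 0.06). Of 10 other stress genes linked to HSF1, 50 pairs were measured, 3 higher (6%) and 8 lower (16%), where 9.09% and 7.26% of the pairs of all genes were. Zfand2a (AIRAP) was past the fold higher in the Cd3e gate only (12.1 and 22.2 CPM) and Dedd2 in the Siglech gate only, while Mcl1, a survival factor, was past it lower in 2 gates and Atf3 in 3.

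Tissue dissociation, cell cycle and time of day can each go with chaperone or cold-shock transcripts, and lists for them were read in the same gates. Of 13 dissociation-associated genes, 78 pairs were measured, 4 higher (5.13%) and 31 lower (39.7%), where 9.09% and 7.26% of the pairs of all genes were. Socs3 and Ier3 were past the fold lower in 5 gates each (Socs3 at 84.4 and 24.7 CPM in the Cd3e gate), whereas Jun was past it higher in the Cd3e (96.8 and 168 CPM) and Ncr1 gates (85.8 and 161 CPM). Of the 78 pairs 62 were below 0. Of 17 clock genes and outputs, 50 pairs were measured, 6 higher (12%) and 3 lower (6%), shares near those of all genes. Arntl was higher in the Cd3e (44.1 and 80.9 CPM) and Ncr1 gates (25.5 and 51.9 CPM) and Bhlhe40 in 3 gates. Cells with at least 2 UMIs of 7 cycling genes were 1.14% and 9.20% of the Csf1r gate, 0.703% and 4.47% of the Csf3r gate and 0.743% and 3.83% of the Cd79a gate. Without them Hsph1 was at 10.4 and 44.7, 4.88 and 16.6, and 14.2 and 55.1 CPM in these gates. The part of collection time and handling in the differences was not tested.

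The makeup of some gates differed between the libraries. In the Csf1r gate, cells with a UMI of a dendritic cell or basophil marker were 13.6% and 35.01%, and without them 8 members were past the fold higher, where 16.6% of genes were, and 2 lower. Hsph1 was then at 9.87 and 47.9 CPM and Hspd1 at 53.0 and 91.5 CPM. Of the members past the fold in the whole gate, 4 were no longer past it: Fkbp4 (31.3 and 36.2 CPM, log2 ratio 0.18), Hsp90ab1 (638 and 899 CPM, 0.49), Cacybp (51.1 and 75.6 CPM, 0.52) and St13 (82.6 and 119 CPM, 0.50). In the Csf3r gate, immature neutrophils (at least 3 UMIs over Camp, Ltf and Ngp) were 2.15% and 18.9%, and without them 17 members were past the fold higher and none lower, where 21.0% and 8.09% of genes were. Those 17 included Hsp90aa1 (90.6 and 154 CPM), Hspa8 (286 and 486 CPM) and Hspe1 (80.7 and 126 CPM). Among T cells of the Cd3e gate, cells with Cd4 and no Cd8a (384 untreated and 960 ConA) and cells with Cd8a and no Cd4 (312 and 1177) each had 7 members higher, where 5.47% and 7.39% of genes were, and 2 lower. Hsph1 was at 20.8 and 80.8 CPM in the first and at 24.8 and 111 CPM in the second.

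Cells outside the 6 gates were read in the same way. Among cells with none of the 6 lineage markers (1879 untreated and 3154 ConA), 4 of 37 measured members were past 1.5-fold higher in the ConA library (10.8%, against 3.56% of 8964 genes) and 3 lower (8.11%, against 15.2%). The 3 lower were Bag3, Cirbp and Rbm3. In these cells Hsph1 was at 14.5 and 48.8 CPM, Chordc1 at 38.0 and 68.2 CPM and Stip1 at 42.1 and 70.3 CPM. Hspa8, at 492 and 624 CPM, was not past the fold there, nor were Dnaja1, Fkbp4 and Hsp90b1. Cirbp was at 100.5 and 43.0 CPM and Rbm3 at 376 and 160.4 CPM. Among cells with several markers (6628 and 4655), which can include doublets, 11 of 37 were higher (29.7%, against 11.6% of 9169 genes) and 2 lower (5.41%, against 10.4%). Hsph1 was at 12.1 and 63.6 CPM there, Stip1 at 36.9 and 87.0 CPM, Cirbp at 108 and 50.6 CPM and Rbm3 at 451 and 213 CPM.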

How the data were processed

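The authors deposited unnormalized UMI counts for each gene in each barcode. Cell Ranger 8.0.1 wrote the matrices per the file headers. Per the submitters' processing notes the build was mm39 and the tools were Seurat 4.3.0 and Cell Ranger, there in version 6.0.1. Barcodes with at least 500 UMIs, 300 genes and at most 10% mitochondrial UMIs were kept. In the reported values doublets were dropped only where a cell held markers of several lineages. As an alternative, cells scoring highest against simulated doublets (a nearest-neighbour score with scikit-learn 1.9.0, 0.8% per 1000 barcodes) were removed too, which marked 5.12% to 13.2% of the gated untreated and 7.37% to 19.6% of the gated ConA cells. Counts were summed per library and gate (Python 3.11.15, numpy 2.4.6, scipy 1.17.1, pandas 2.3.3) and divided by the gate's UMIs. Intervals are exact: Poisson for levels, conditional for ratios and Clopper-Pearson for shares. The free share of a gate's RNA was estimated from S100a8 and S100a9, or from Igkc in the Csf3r and Csf1r gates. Members past the fold in at least 3 gates, or with the 2 largest mean ratios of their group by size, were described in full; of each other list at most the 2 highest and 2 lowest genes were named. In all, 23 alternatives were run. The members and lists were chosen with earlier results of these data known.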

Additional observations from a re-analysis of the deposited data

How the results depend on the processing

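Over 23 alternatives, 19 listed at the start and 4 chosen after seeing the data, the 57 member and gate values past the fold gave 1073 recomputed values, 112 of them no longer past it and 1 reversed: Dnajb11 in the Cd79a gate, at -0.14 without plasma-gated cells. Hsph1 stayed above 0 in each (0.39 to 2.31), as did Stip1 and Chordc1, and Cirbp and Rbm3 stayed below 0. Hsph1 in the Csf3r gate, and Chordc1, were at times under 1.5-fold. Counts of members that moved by over 1.5 times were mostly those of the Csf3r gate, whose ConA side holds 470 cells. Its members past the fold higher numbered 5 and lower 2 with gating by the marker with most UMIs. There were 4 higher with a constant of 20 CPM, 4 higher and 2 lower when centred on the median gene, and 5 higher after free RNA was subtracted. As a mean over cells 15 were higher. Without cycling cells 14 were higher, where 15.9% of genes were, and without immature neutrophils 17 were, where 21.0% of genes were. Lower in that gate were 2 with predicted doublets removed and 1 after thinning to 1000 UMIs. Centring left 7 higher in the Csf1r gate, and thinning gave 9 higher in the Cd3e gate and 1 lower in the Csf1r gate. The Ncr1 gate had 7 higher without cycling cells, where 6.46% of genes were, and 7 with immunoglobulin and haemoglobin genes out of the total. At a 2-fold threshold the counts higher were 3 (Cd79a), 1 (Cd3e), 1 (Ncr1), 3 (Csf3r), 5 (Csf1r) and 5 (Siglech), and 0 were lower in the Csf1r gate. For counts given here without a share, that of all genes was not computed under the setting. The causes were not tested. With 1 library per group, animal, sort, library and treatment cannot be told apart. No paired analysis was possible because each group has 1 library.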
